A study of Drosophila melanogaster with 4 samples.

Results

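On chromosome arms X, 2L, 3L and 3R of Drosophila melanogaster larvae, 400 long gaps, each of 40 kb or more, lay between regions enriched for the histone variant H2Av. They were found by merging all regions of the 3 deposited lists on these arms, where regions overlapped or touched, and by keeping every gap of 40000 bp or more between consecutive merged regions. Sequence before the first and after the last region of an arm was left out. The merged set had 6330 regions and 6326 gaps, so the long gaps were 6.32% of all gaps, a share fixed by the length that was asked for. The gaps were selected on the positions of the regions in all 3 lists, so every value of the same lists given here is a description and none is tested.

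The lists came from chromatin immunoprecipitation followed by sequencing (ChIP-seq), with an antibody named H2AV 9751 against H2Av. There were 2 ChIP libraries and, as input without precipitation, 2 libraries of sonicated chromatin, all from nuclei of larvae of the third instar of the wild-type strain Oregon-R, with no treatment and no other genotype. Each ChIP replicate has its own list, called against the input of the same number, and a combined list covers the series. The labels name neither tissue nor sex and do not say whether replicates were separate collections of larvae, so their spread may be technical, and with no gene names in the lists the stage rests on the labels alone.

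H2Av does in flies the work that other animals divide between the variants H2A.Z and H2A.X. It is known from nucleosomes near the start of active genes, from heterochromatin formation and Polycomb silencing, and from the response to broken DNA. Much of the fly's euchromatic arm sequence is also known to lie in long domains of silent chromatin with few marks of its own. An empty stretch in these lists means that no region was called there. The level of H2Av inside it is not in the lists. Their read depth and calling threshold are unknown here.

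The long gaps were few in number and held a large part of the arms. Together they took up 35.2 Mb, or 36.0% of the 97.9 Mb of the 4 arms, and 51.1% of all sequence that lay in gaps. The other gaps held 34.4% of the arms and the merged regions 29.5%. The median long gap was 75.2 kb, with quartiles of 53.1 and 111 kb, while the median of the other gaps was 2398 bp. The lengths ran on without a break across the least length: the shortest long gaps were 40032, 40046 and 40102 bp, and the longest gaps just outside were 39997, 39969 and 39881 bp. Within 5 kb of the least length, 46 gaps lay inside and 78 outside.

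The sequence was concentrated in the longer members. The 125 gaps of at least 100 kb, 31.3% of the members, held 50.9% of their bases. At 150 kb or more there were 41 gaps with 21.5% of the bases, and 11 gaps reached 200 kb. Of those 11, 5 lay on 3L and 2 on each of X, 2L and 3R.

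**Figure D1:**
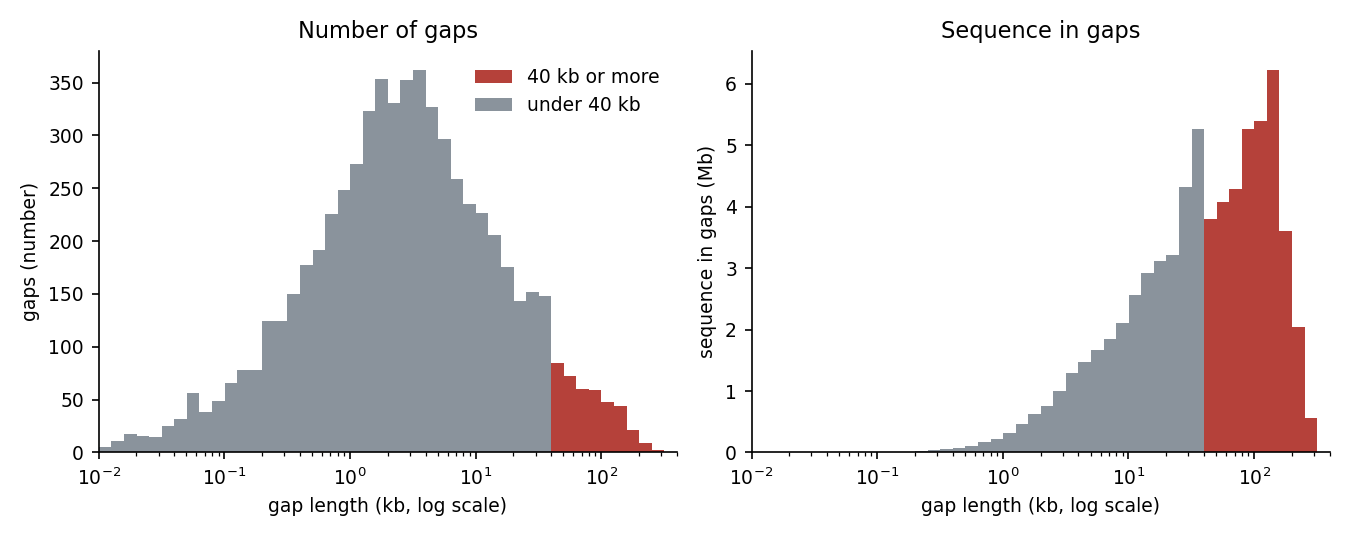
Gaps between merged H2Av regions on X, 2L, 3L and 3R by length in kb on a log axis, as the number of gaps (left) and as the sequence they hold in Mb (right), with gaps of 40 kb or more in red and shorter gaps in grey. The 400 long gaps are the thin right tail of the counts, 6.32% of the gaps, and hold 51.1% of the gap sequence.

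All 4 arms carried long gaps to a like extent. They covered 35.7% of X with 92 members, 37.9% of 2L with 98, 34.7% of 3L with 94 and 35.8% of 3R with 116. Per Mb of arm this was 4.10 on X, 4.26 on 2L, 3.83 on 3L and 4.16 on 3R. Median lengths were 77.6 kb on X, 76.1 kb on 2L, 73.4 kb on 3L and 69.8 kb on 3R, closer together than the quartiles within any of the arms. The X chromosome, which is dosage compensated in males, thus lay within the range of the autosomal arms in share and a little above it in median length.

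Over the 4 arms together, long gaps were sparsest in the segments nearest the centromere, where fly arms pass into heterochromatin, but the arms differed in this. Each arm was cut into 10 segments of equal length, counted from the distal end. Segments 9 and 10 were covered by long gaps to 26.3% and 23.9% over the 4 arms, and the other segments to between 34.9% and 47.7%. The highest value of a single arm was 64.6%, in segment 2 of X, where the midpoints of 18 long gaps lay. The least covered segment of X was segment 8, at 18.9%, and its segments 9 and 10, at 30.5% and 30.3%, were close to segments 1 and 6, at 31.0% and 30.8%. On 2L segment 9 was at the mean of the arm, and segment 10 was the lowest at 22.6%. On 3L and 3R segments 9 and 10 were the lowest of the arm, at 18.6% and 22.4% on 3L and 20.2% and 21.4% on 3R. On 2L segments 7 and 8 were the fullest, at 59.7% and 53.4%. On 3L segment 3 was fullest, at 48.4%, and on 3R segment 2, at 53.8%.

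The distance kept from the centromere-side end of the assembled arm differed between the arms. The nearest long gap began 1.69 Mb from that end on 3L, 0.973 Mb on 2L, 0.799 Mb on 3R and 0.199 Mb on X. Long gaps filled none of the last 1 Mb of 3L, 2.73% of it on 2L and 15.3% on 3R, and 25.3% on X. X thus had 3 long gaps reaching into that stretch, where 2L and 3R had 1 each, and its nearest gap was 119 kb long.

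**Figure D2:**
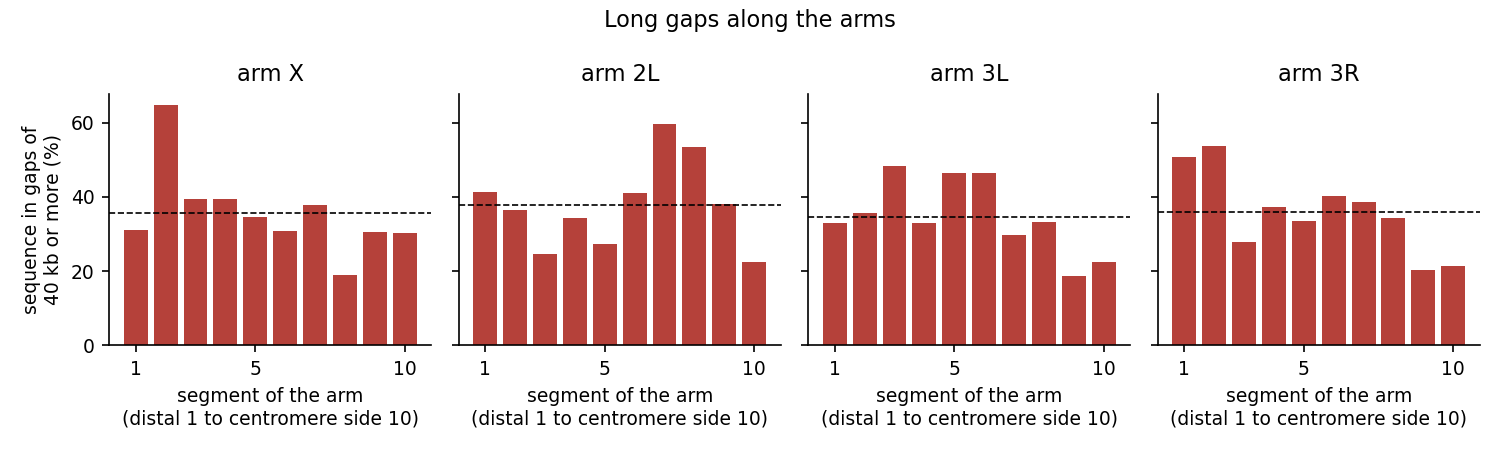
Percent of sequence in H2Av gaps of 40 kb or more in each of 10 equal segments of X, 2L, 3L and 3R, from the distal end (1) to the centromere side (10), with the mean of the arm as a dashed line. Segment 2 of X stands highest at 64.6%, and segment 10 lies under the arm's mean on every arm, at 30.3% on X, 22.6% on 2L, 22.4% on 3L and 21.4% on 3R.

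In windows of 1 Mb the share of sequence in long gaps ranged from 0 to 75.4%, with a median of 34.8% over 96 windows. The fullest window was 3L from 10000001 to 11000000, where long gaps of 64.4, 133, 205, 74.4, 176 and 140.5 kb lay wholly or partly inside. Next came 2L from 14000001 to 15000000 at 68.2%, touched by 9 long gaps between 40.3 and 163 kb, and X from 4000001 to 5000000 at 68.1%, touched by 7 long gaps between 58.7 and 203 kb. The window without any was 3L from 23000001 to 24000000, on the centromere side. So some stretches of a whole Mb lay mostly in long gaps, which held 36.0% of the 4 arms. At the other end long gaps were missing for as long. Being mostly without called H2Av is not particular to the full windows, since merged regions covered 29.5% of the 4 arms.

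In the merged set, neighbouring gaps were long more often beside a long gap. A gap next to a long gap, parted from it by a single merged region, was itself long in 12.8% of 800 sides, against 5.89% of 11844 sides of the other gaps. Its median length was 6.63 kb, against 2.60 kb beside other gaps. At the third gap the shares were 10.5% against 6.05%. From the fourth to the tenth gap the share ran from 5.25% to 8.25% with no steady order, against 6.21% to 6.43% beside other gaps. It was 6.75% at the fourth, 8.25% at the fifth and 8.25% at the tenth. In all, 97 long gaps (24.3%) had a long gap directly beside them, in 41 pairs and 5 runs of 3, while 303 stood alone. By arm these shares were 35.1% on 3L, 29.6% on 2L, 20.7% on 3R and 12.0% on X. X thus had a like share of sequence in long gaps but fewer of them side by side. Of all gaps, 5.90% were long on 3L, 6.87% on 2L, 6.44% on 3R and 6.11% on X. A long gap has a neighbour on either side, so these 2 kinds of share do not measure the same thing. The shares by side were not split by arm, so the order seen over the 4 arms is not shown for X alone.

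The runs were close to empty over their whole span. On X the run with most members spanned 281 kb at 2685214 to 2966335, held 3 long gaps and was 98.6% empty, parted by regions of 1338 and 2519 bp. On 2L it spanned 313 kb at 14376228 to 14689183, was 99.0% empty and was parted by regions of 1725 and 1426 bp. On 3L it spanned 289 kb at 13535104 to 13823980, was also 99.0% empty and was parted by regions of 1537 and 1312 bp. On 3R, where no run had over 2 members, the longest spanned 315 kb at 23815858 to 24130818 and was parted by a single region of 1820 bp. All 7 parting regions of these 4 runs were in the list of replicate 1, and 1 of them, on X, was also in that of replicate 2.

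Between consecutive long gaps lay intervals of very unequal length. The 396 intervals had a median of 88.3 kb and 9.5 merged regions, with quartiles of 26.8 and 199.9 kb. A single region filled 51 of them, 2 to 5 regions 99, and over 20 regions 102. The longest interval was on 3L at 19414034 to 20536037, 1122 kb with 117 merged regions, covered to 47.8% in replicate 1 and to 31.7% in replicate 2. The longest on 2L was 812 kb, on 3R 750.2 kb and on X 733 kb, and merged regions covered 44.6%, 58.2% and 58.2% of them. Over all sequence outside long gaps this was 46.2%, so the interval of 2L lay close to it and those of 3R and X above.

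The longest members show how far the lists differed on the same stretch. Every long gap lies within a stretch that is empty in each list, and its length in a list can be longer than the gap but not shorter. On X at 12010307 to 12300721 the longest gap, 290.4 kb, lay in an empty stretch of 290.4 kb in replicate 1, 339 kb in replicate 2 and 332 kb in the combined list. Its flanks were 2035 and 1432 bp wide, and replicate 2 held the first of them and not the second.

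The second longest gap, on 3L at 4838265 to 5106327, had 268 kb. Its stretch was 290.8 kb in replicate 1, 290.4 kb in replicate 2 and 268 kb in the combined list. The replicates were thus closer to each other here than to the combined list. Its end was set by a region of 1001 bp that only the combined list held.

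On 3L at 11234464 to 11483402 the gap of 249 kb was 249 kb long in replicate 1, 298 kb in replicate 2 and 293 kb in the combined list. The longest gap of 3R, 248 kb at 23815858 to 24063958, was 248 kb long in replicate 1, 350.2 kb in replicate 2 and 315 kb in the combined list. On 3L at 13051794 to 13292249 the gap of 240.5 kb was 240.5 kb long in replicate 1, 332 kb in replicate 2 and 329 kb in the combined list. In each of these 3 the stretch of replicate 2 was longer, by 48.7 to 102 kb, and in none did replicate 2 hold a flanking region.

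The gap nearest the centromere among the 10 longest lay on 3L at 22295913 to 22524472, 2.02 Mb from the end of the arm, with 229 kb. Around it replicate 1 was empty for 229 kb, replicate 2 for 421 kb and the combined list for 397 kb. The longest gap of 2L, at 15276417 to 15504093 with 228 kb, was alike in all lists: 228 kb in replicate 1, 229 kb in replicate 2 and 228 kb in the combined list. Both of its flanks, 5817 and 2275 bp wide, were found in all 3 lists.

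The other 3 of the 10 longest had 228, 206 and 205 kb. They lay on 3R at 23127602 to 23355123, on 2L at 11546715 to 11752534 and on 3L at 10219399 to 10424169. Their stretches in replicate 2 were 260 kb on 3R, 267 kb on 2L and 236 kb on 3L, and those in replicate 1 were no longer than the gaps. Of the 10 longest, then, replicate 1 set both edges of 8.

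Over all 400 long gaps the stretch in replicate 1 was nearly the gap itself, and that in replicate 2 reached well beyond it. The median stretch was 76.2 kb in replicate 1, 158 kb in replicate 2 and 123 kb in the combined list, where the gaps had 75.2 kb. In replicate 1 the stretch exceeded the gap by under 10% for 380 gaps (95.0%), in replicate 2 for 74 (18.5%) and in the combined list for 160 (40.0%). It was over 2 times the gap for 170 gaps in replicate 2, for 88 in the combined list and for 1 in replicate 1. For 71 gaps (17.8%) it exceeded the gap by under 10% in all 3 lists, and these had a median length of 79.4 kb. Replicate 1 had 6752 regions on these arms, replicate 2 had 3372 and the combined list 5398. A longer list leaves shorter stretches, so the part that depth or the calling threshold had in this was not tested.

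**Figure D3:**
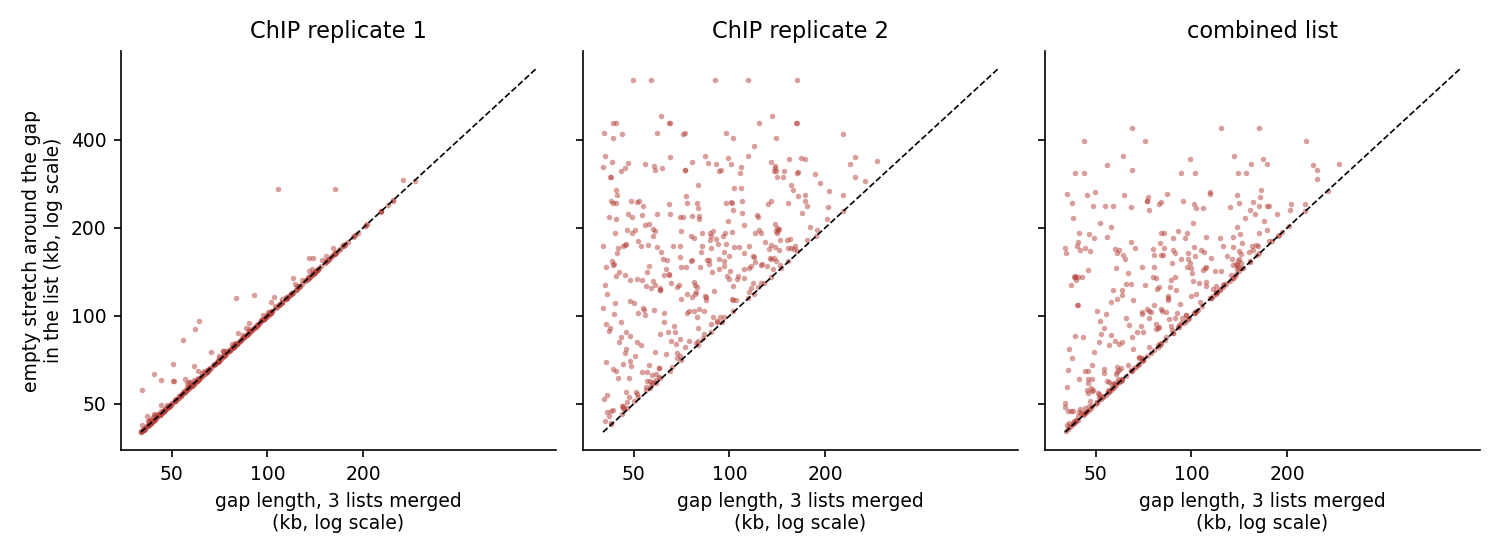
Length in kb of the empty stretch around each of the 400 long gaps in ChIP replicate 1, ChIP replicate 2 and the combined list, against the length of the gap with the 3 lists merged, both on log axes, with equality as a dashed line. Points lie on the line for replicate 1, where 95.0% are within 10% of it, and spread far above it for replicate 2, where 18.5% are.

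Several long gaps of the merged lists often lay in 1 stretch that replicate 2 left empty. Of the 506 stretches of at least 40 kb without a replicate 2 region, 68 held 2 or more long gaps, 246 held 1 and 192 held none. The longest was 639 kb on 2L at 14364160 to 15003146, and held 5 long gaps of 90.0, 56.8, 163, 115 and 49.6 kb. These 5 made up 74.2% of it, and 14 merged regions inside it summed to 21.1 kb. Within the 192 stretches that held no long gap, replicate 1 had 875 regions. At the median these were 1770 bp wide, against 2754 bp for the remaining replicate 1 regions of the arms. Their median score was 0.65, against 0.80 for the remaining ones. Replicate 1 alone had 424 stretches of at least 40 kb over 37.8% of the arms, and replicate 2 had its 506 over 62.5%.

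Merged regions at the edges of long gaps were narrower than others, by an amount that depended on the list. The 749 merged regions that flanked at least 1 long gap were 1886 bp wide at the median, with quartiles of 1453 and 3302 bp. The other 5581 merged regions had 2797 bp, with quartiles of 1654 and 5658 bp. The order held on each arm, with 1751 against 2734 bp on X, 1788 against 2701 bp on 2L, 2177 against 2899 bp on 3L and 1984 against 2844 bp on 3R. The difference of -911 bp was much smaller with replicate 2 taken alone, at -303 bp (3492 bp for 925 flanking regions against 3795 bp for others). With merged regions of both replicates alone it was -393 bp (5702 against 6095 bp). Replicate 2 regions inside the flanking merged regions were 3410 bp wide at the median, against 3723 bp for its others. On 2L this order was the other way, at 4238 bp over 48 regions against 3819 bp, and on X, 3L and 3R it held. Broad regions of at least 10 kb were 33 of the flanking ones (4.41%), against 603 of the others (10.8%) and 10.0% of all merged regions. A broad region lay at an edge of 33 long gaps (8.25%) and at both edges of none, and 132 (33.0%) had only regions under 2 kb. These shares were not taken over the other gaps, so they are not shown to be particular to long gaps. Flank width did not go with gap length, with a Spearman correlation of 0.0015 across the 400 gaps, whose neighbours share flanks. The median flank had 1910 bp at gaps of 40 to 60 kb and 1854 bp at gaps of 150 kb or more.

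The flanking regions were less often shared between the lists. Replicate 1 held 696 of them (92.9%), against 89.7% of the others and 90.1% of all merged regions. Replicate 2 held 218 (29.1%), against 46.6% of the others and 44.5% of all. The combined list held 423 (56.5%), against 80.7% of the others and 77.9% of all. Both replicates held 211 (28.2%), against 44.4% of the others and 42.4% of all. Found in replicate 1 alone were 325 (43.4%), against 1044 (18.7%) of the others. The mean share over the replicates was 61.0% ± 45.1 for flanking regions and 68.2% ± 30.5 for the others (SD, n = 2 each). The replicates thus went opposite ways, and the lower mean of the flanking regions came from replicate 2. A lower share common to both replicates was not seen. These SDs are of the shares themselves, so they do not measure the spread of the difference between flanking regions and the others. A narrow region meets another list's regions less often than a wide one, and the part that width had in these shares was not tested.

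**Figure D4:**
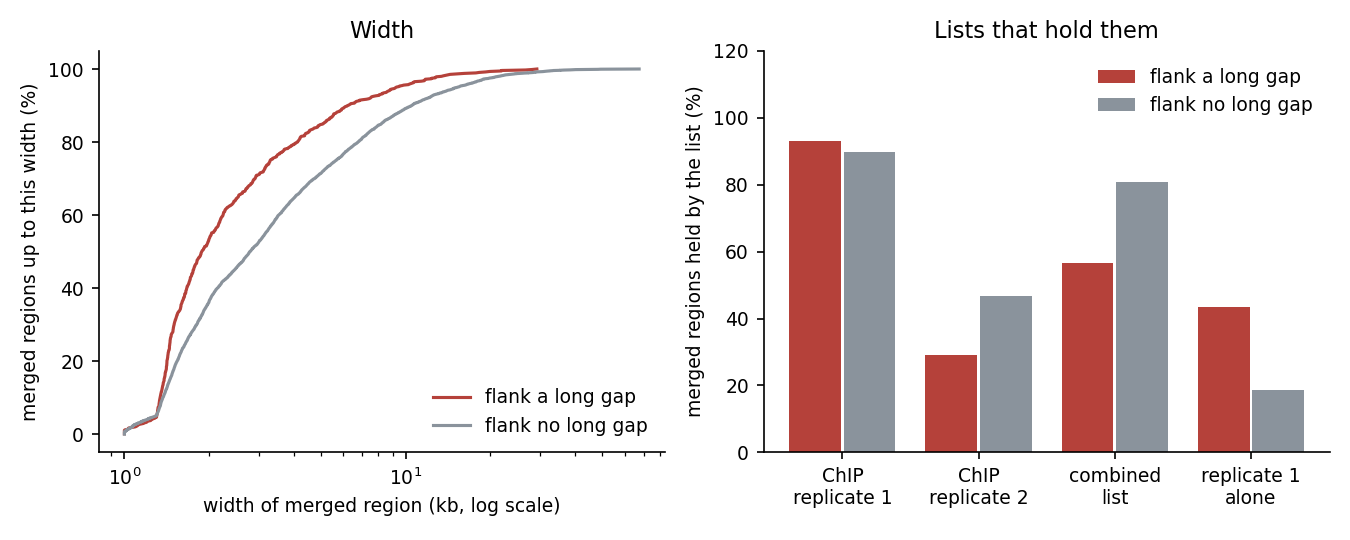
Merged regions that flank a long gap (red, 749) and those that flank none (grey, 5581): the percent of regions up to each width in kb on a log axis (left), and the percent held by each list or by replicate 1 alone (right). Above the narrowest widths the red curve lies to the left of the grey, with medians of 1886 and 2797 bp, and replicate 1 alone held 43.4% and 18.7% of them.

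Scores of flanking regions were somewhat lower within each list. The score is the authors' own value for a region, its definition is unknown here, and it is compared within a list only. For scores, the regions counted are those of a list that lie inside merged regions flanking a long gap. A merged region can hold several of them. In replicate 1 the median score was 0.73 over 762 such flanking regions and 0.78 over 5990 others. In replicate 2 it was 0.80 over 246 and 0.93 over 3126, and in the combined list 0.50 over 466 and 0.56 over 4932. As ranks within the list, the flanking regions had a median at the 45.3rd percentile in replicate 1, the 40.8th in replicate 2 and the 45.7th in the combined list. The quartiles overlapped widely, at 0.57 to 0.94 for flanking regions and 0.57 to 1.05 for the others in replicate 1, and 0.59 to 1.17 for flanking regions and 0.63 to 1.24 for the others in replicate 2.

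Among regions of like width the order of the scores was mixed. For regions under 2 kb in replicate 1 the median was 0.61 over 389 flanking regions and 0.53 over 2097 others, the opposite order. In replicate 2 it was 0.49 over 41 flanking regions and 0.51 over 518 others. At 2 to 4 kb it was 0.82 for flanking regions and 0.80 for others in replicate 1, and 0.72 for flanking regions and 0.78 for others in replicate 2. At 4 to 8 kb it was 1.07 for both kinds in replicate 1, and 1.13 for flanking regions and 1.12 for others in replicate 2. At 8 kb or more the flanking regions stood lower, with 1.16 against 1.24 in replicate 1 and 1.22 against 1.30 in replicate 2, over 26 and 27 flanking regions. The differences in replicate 1, 0.079 under 2 kb and -0.085 at 8 kb or more, were larger than the -0.046 over all its regions. The median score was higher in each wider class of both kinds of region, and the part that width had in the lower scores of flanking regions was not tested.

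The regions that part a pair of long gaps were narrow and mostly called in replicate 1 alone. At the median these 51 were 1725 bp wide, against 1918 bp for the 698 regions that flanked 1 long gap, and none was broad. On 2L the order was the other way, at 1837.5 bp over 16 parting regions against 1779.5 bp. Replicate 1 held 50 of them, replicate 2 held 6 and the combined list 12, and 39 (76.5%) were in replicate 1 alone. Their median score in replicate 1 was 0.82, at the 55.2nd percentile of that list and above the 0.73 of flanking regions as a whole. This order was not seen everywhere. On 3L, the arm with most parting regions, their median was 0.63 over 17, against 0.70 for all flanking regions of that arm, and on X the medians were 0.80 for both. In replicate 2 it was 0.62 over 6, against 0.80 for all flanking regions of that list. Replicate 2 lacked most of them, so in its list these pairs join into single stretches.

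Agreement on the exact edge of a long gap was rare. By the rule an edge is set by whichever list reaches farthest into the stretch. Of the 800 edges, replicate 1 set 598 (74.8%), the combined list 160 (20.0%) and replicate 2 set 42 (5.25%). Replicate 1 had a region within 1 kb of 727 edges (90.9%), the combined list of 408 (51.0%) and replicate 2 of 164 (20.5%). All 3 lists had one within 1 kb at 142 edges (17.8%). The nearest replicate 2 region lay a median of 18.9 kb beyond the edge. At 221 long gaps (55.3%) neither flank held a replicate 2 region, and at 45 (11.3%) both did. Of all merged regions replicate 2 held 44.5%. Edges of shorter gaps were not measured, so rare agreement is not shown to be particular to long gaps.

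Beyond the first 2 kb outside the long gaps, H2Av coverage was lowest at 5 to 20 kb from the edge. Up to 50 kb it was still under its level farther away. Next to an edge the coverage of the merged lists is fixed by the choice of gaps, since every edge is a region of some list. In the first 1 kb replicate 1, which set most edges, covered 87.0%. Replicate 2 covered 15.4% there, its lowest value at any distance. From 5 to 10 kb beyond the edge, regions covered 30.3% in replicate 1 and 22.1% in replicate 2 (26.2% ± 5.77, SD, n = 2), and from 10 to 20 kb 30.03% and 21.6% (25.8% ± 5.95, SD, n = 2). From 20 to 50 kb they covered 37.6% and 28.5% (33.0% ± 6.44, SD, n = 2), from 50 to 100 kb 41.8% and 31.1%, and at more than 100 kb 43.5% and 30.9% (37.2% ± 8.93, SD, n = 2). All sequence outside long gaps was covered to 40.5% in replicate 1 and 28.6% in replicate 2, so at 20 to 50 kb replicate 1 was under that value and replicate 2 almost at it. The lower coverage near the gaps was seen in both replicates, at 0.69 of the far level in replicate 1 and 0.70 in replicate 2 for 10 to 20 kb. Coverage at 10 to 20 kb minus that at over 100 kb was -13.5 percentage points for replicate 1. For replicate 2 it was -9.29, with a mean of -11.4 ± 2.98 (SD, n = 2). Both lists took part in choosing the gaps, so their agreement is no independent support. Beyond an edge, the nearest replicate 2 region lay at a median of 18.9 kb. How far the choice of gaps lowered coverage at 5 to 20 kb was not tested.

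Sequence near an edge includes the short intervals between close long gaps, so the 99 intervals of at least 200 kb were also taken alone, a choice made after seeing the data. From 5 to 10 kb beyond the edge these had 28.3% in replicate 1 and 17.1% in replicate 2. From 50 to 100 kb they had 42.6% and 31.5%. Over all sequence outside long gaps the same distances had 30.3% and 41.8% in replicate 1, and 22.1% and 31.1% in replicate 2. At 5 to 10 kb the fall in coverage near long gaps was thus larger in the longer intervals, in both replicates. From 10 to 20 kb the longer intervals had 30.7% in replicate 1 and 19.9% in replicate 2. Over all sequence outside long gaps these were 30.03% and 21.6%, so at that distance the fall in replicate 1 was nearly the same. Median widths of the regions beyond 2 kb from an edge ran from 2454 to 2802 bp in replicate 1, widest over 100 kb away, and from 3348 to 4211 bp in replicate 2, widest at 2 to 5 kb.

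**Figure D5:**
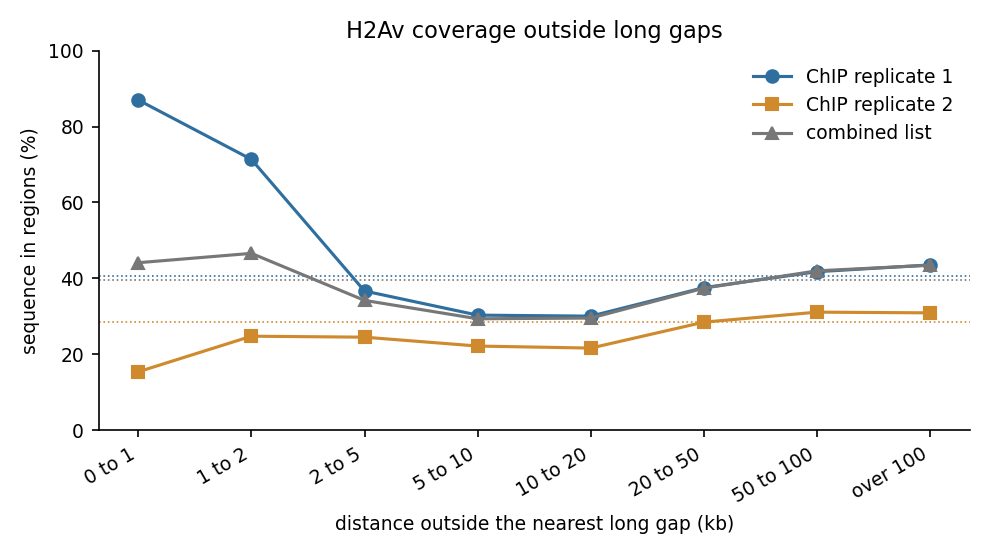
Percent of sequence in H2Av regions by distance in kb outside the nearest long gap, for ChIP replicate 1 (circles), ChIP replicate 2 (squares) and the combined list (triangles), with each list's value over all sequence outside long gaps as a dotted line. Values up to 2 kb reflect the regions that end the gaps, mostly of replicate 1, and replicate 2 is at its lowest within 1 kb, at 15.4%. At 5 to 20 kb all 3 lists lie under their dotted lines. At 20 to 50 kb they are still under them, replicate 2 only just (28.5% against 28.6%), and beyond 50 kb they lie above.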

How the data were processed

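Each list gives the start, end and score of regions on FlyBase release 5, per the file headers. Per the submitters' processing notes, Bowtie 0.12.7 aligned the reads. The score of each region is the authors' deposited value, and its definition is not given in the sources used here. Nor are the peak caller, its threshold or the way the combined list was made. No counts or read depths are at hand, so depth is unknown and no counting error can be given.

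Regions on X, 2L, 3L and 3R were merged where they overlapped or touched, with Python 3.11.15, NumPy 2.4.6 and pandas 2.3.3. Gaps of 40000 bp or more between consecutive merged regions are the long gaps. Positions count from 1, and arm lengths are from the file headers. X, 2L and 3L run from the distal end to the centromere and 3R from the centromere outward. The functions for merging and gaps were tested on simulated data.

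The gaps, comparisons and named gaps (the 10 longest, the longest and the largest run on each arm, and those next to the least length) were chosen with earlier results of these data known. No test was made, because the rule used the same lists. Gene positions and sequence of release 5 were not used here, so gaps are named by position alone.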

Additional observations from a re-analysis of the deposited data

How the results depend on the processing

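No statement here rests on a test, and depth limits what an empty stretch means: fewer reads or a stricter threshold can leave longer gaps. Taking a single replicate list alone, the number of long gaps was 424 to 506, their share of the arms 37.8% to 62.5%, their median length 72.9 to 94.0 kb, the share beside another long gap 27.1% to 30.6% and the median flank width 1882 to 3492 bp. With a least length of 30 kb the median length was 54.2 kb, the share beside another 36.4% and the replicate 2 flank score 0.89. With 60 kb there were 258 gaps with a median of 98.7 kb, 15.5% of them beside another. With the 2 replicate lists merged without the combined list the share beside another was 26.6%, and 27.8% with regions up to 1000 bp apart joined. Over regions in the upper 50% of scores that share was 44.0%, the median flank width 3915 bp, and the flank score 0.98 (replicate 1), 1.20 (replicate 2) and 0.93 (combined list). Leaving out regions under 1000 bp changed nothing, as no region is that narrow. Added after seeing the data, leaving out regions under 2000 bp gave 29.7%, 3680 bp and scores of 0.89, 0.95 and 0.76 in that order. Merged regions of both replicates alone, also added later, gave 61.6% of the arms, a median of 94.0 kb, 34.6% beside another, 5702 bp and scores of 0.88 in replicate 1 and 0.81 in the combined list. The cause of these moves was not tested beyond what each setting removes. Long gaps were 400 of 6326 gaps in the merged set, 424 of 6739 in replicate 1 alone and 506 of 3365 in replicate 2 alone. They were 530 of 3419 over the upper 50% of scores and 492 of 2683 with regions of both replicates alone. The share beside another rises with this base, so it does not compare clustering between settings. Shares beside other gaps were taken in the merged set only, so clustering is not shown for replicate 2 alone. Of 81 alternative values, 53 stayed within the replicate spread or, for counts, within 1.5 times. The 53 include those with regions under 1000 bp left out, which could not change. The spread came from each replicate list taken alone, and these are also among the settings. For scores it was the spread between the medians of the 2 replicates, used for the combined list too. The tally is thus no measure of how stable the results are. Flanking regions had a lower median width and score than the others in every setting run, by differing amounts. The width difference, -911 bp, was -303 bp with replicate 2 alone and -393 bp with regions of both replicates alone, and -1543 bp with regions up to 1000 bp apart joined. The score difference was -0.046 in replicate 1, and -0.014 there with a least length of 60 kb. In replicate 2 it was -0.130, and -0.038 with 30 kb and -0.049 over the upper 50% of scores. No paired analysis was possible because inputs carry no list, and the regions of a ChIP replicate were already called against the input of its number.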

Other observations

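Some edges were set by narrow regions that only the combined list held, with scores among the highest of that list. Of the 46 flanking regions held by neither replicate, 13 (28.3%) had a score over 2, against 29 of 447 such regions (6.49%) that flanked no long gap. Among combined-list regions within a merged region that a replicate also held, the highest score was 1.98 over 420 flanking regions, and 14 of 4485 others (0.312%) scored over 2. The 46 were 1001 to 1977 bp wide, with a median score of 0.43 and a highest of 3.54. A single score, 3.22, was repeated in 5 of them, among them the region on 3L at 5106328 to 5107328 that ends the second longest gap and that on 2L at 4066848 to 4067848. On 2L that region of 1001 bp parts long gaps of 163 and 108 kb, in a stretch of 272.5 kb that replicate 1 left empty. This was noticed in the data and not tested.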
